A study of Mus musculus with 4 samples.

Results

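Imprinted genes are described here across 4 mouse arrays. A list of 43 genes was matched by gene symbol to the probe sets that the platform annotation gives to 1 gene alone, and each gene kept its brightest such probe set on average. In this way 38 of the 43 genes were read, out of 22180 genes with a probe set of their own. The 43 genes lie in 19 imprinted clusters, 8 of which hold more than 1 gene of the list. The maternal allele is the expressed one for 19 of them and the paternal allele for 24 (17 and 21 of those read), by textbook assignment. The 5 genes with no probe set of their own are H19, Snrpn, Zrsr1, Rtl1 and Mirg, and probe sets that H19, Snrpn, Rtl1 and Mirg share with neighbours are given separately.

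Genomic imprinting is the expression of a gene from only the copy inherited from the mother or only the copy inherited from the father. The choice is set by DNA methylation laid down in egg or sperm at imprinting control regions, and these regions usually govern a whole cluster of genes, often through a long non-coding RNA. Imprints survive the wave of demethylation in the early embryo because proteins such as Zfp57 and Trim28 hold methylation at the control regions, and they are known to be lost or altered at some loci when cells are reprogrammed or kept in culture. The arrays measured total transcript and did not separate the parental alleles, so a level says nothing of which allele gave it.

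Each of the 4 groups was 1 array of total RNA. The 2 day 6 samples were bulk cultures of reprogrammable mouse embryonic fibroblasts, which carry reprogramming factors switched on by doxycycline, at day 6 after induction; 1 had a knockdown of Firefly, a luciferase that mouse cells lack, and 1 a knockdown of Sumo2. The 2 other samples were induced pluripotent stem cells (iPSC), described as stable clones from fibroblasts with Sumo2 knockdown and labelled 38 h and 10 day, with no statement of what that time counts. Per the labels, all groups shared the Black6-129X1/SvJ background, a pool of male and female cells, embryonic stem cell medium with serum, and treatment of the fibroblasts with doxycycline and ascorbic acid. The Sumo2 transcript stood at log2 10.65 in the Firefly culture and 10.56 in the other (93.8% of the control), so the second is called the culture labelled Sumo2 knockdown.

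Values are log2 expression after robust multi-array averaging (RMA). The median of the single-gene probe sets on each array, 6.64 to 6.67, served as the measuring floor, and a gene was called measured in a comparison if it reached the floor on at least 1 of the arrays compared. Pluripotency markers had a median log2 level of 6.59 in the Firefly culture, 7.36 in the culture labelled Sumo2 knockdown, 10.88 in the 38 h line and 11.01 in the 10 day line, with 5, 8, 11 and 11 of 12 at or above the floor. Dppa5a was below the floor on all 4 arrays. The summed linear level of 12 fibroblast markers was 13230, 10076, 7011 and 5895 in the same order, so fibroblast transcripts, collagens among them, were still read in the iPSC lines. Across probe sets, Pearson's r was 0.987 within the day 6 pair, 0.985 within the iPSC pair and 0.914 to 0.934 between the pairs, given as a description only.

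Of the 38 imprinted genes read, 24 were at or above the floor on all 4 arrays, 7 on some of them and 7 on none. The 7 below the floor everywhere were Kcnq1, Airn, Usp29, Zim1, Magel2, Dio3 and Asb4, which have no measured order or difference here. The plot of the 38 genes by array shows most members within a narrow range, with Phlda2 and Peg3 spread furthest.

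**Figure D1:**
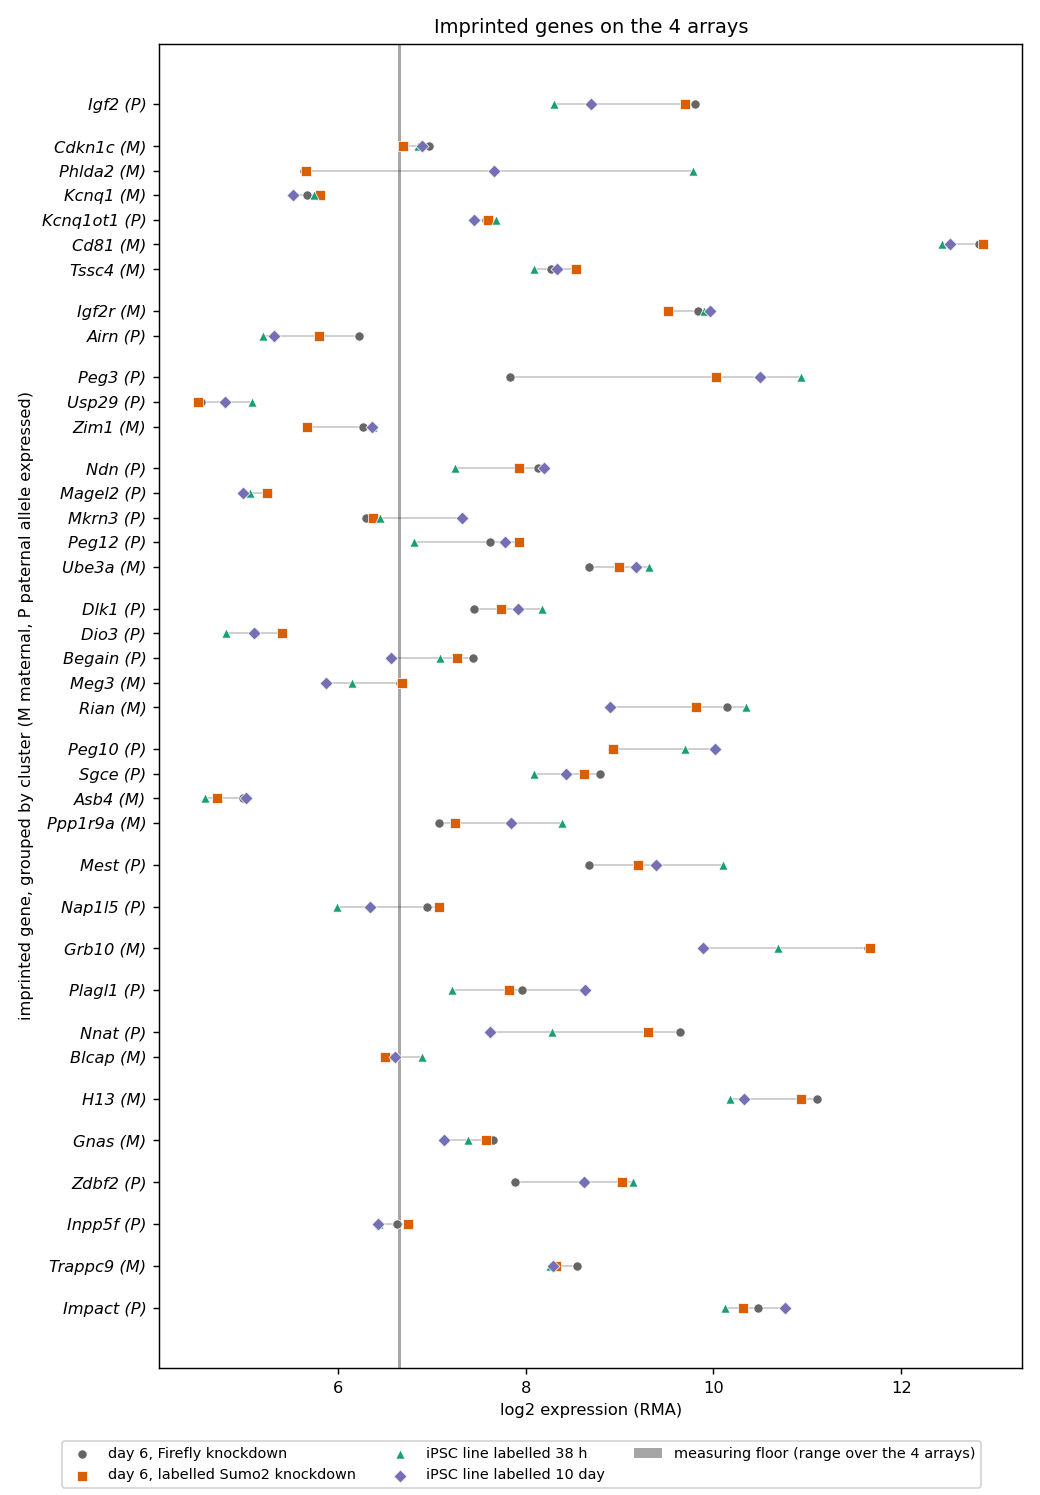
Log2 RMA expression (horizontal axis) of the 38 imprinted genes with a probe set of their own, 1 point per array, grouped by cluster; M and P give the allele known to be expressed and the grey band the measuring floor of 6.64 to 6.67. Phlda2 runs from 5.64 to 9.78 and Peg3 from 7.83 to 10.93, while 7 genes lie below the floor on every array.

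The sequences just upstream of the start sites are shown for the 4 genes on which the single-gene results turn most, to describe their CpG content. These windows need not be the imprinting control regions, which usually govern a whole cluster. The RefSeq promoter sequences used here (GRCm38.p6) hold starts for 35 of the 43 genes, 55 in all, and lack an entry for the others. In each line below, the 250 bases before the start are written 5′ to 3′ in the direction of transcription, with every CpG in capitals. Zdbf2 has 2 listed starts, and both are shown.
Phlda2, chr7:143502525-143502774, minus strand: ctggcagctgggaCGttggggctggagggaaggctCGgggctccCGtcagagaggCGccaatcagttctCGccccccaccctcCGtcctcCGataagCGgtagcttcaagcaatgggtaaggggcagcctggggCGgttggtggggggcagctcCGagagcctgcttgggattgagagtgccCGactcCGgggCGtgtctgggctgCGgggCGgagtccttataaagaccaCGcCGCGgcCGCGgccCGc
Peg3, chr7:6730420-6730669, minus strand: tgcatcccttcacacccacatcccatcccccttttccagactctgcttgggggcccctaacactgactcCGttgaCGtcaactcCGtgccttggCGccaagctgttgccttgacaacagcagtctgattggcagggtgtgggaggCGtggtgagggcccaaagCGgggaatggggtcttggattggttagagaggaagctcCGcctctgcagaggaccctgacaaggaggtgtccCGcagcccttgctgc
Zdbf2, chr1:63200108-63200357, plus strand: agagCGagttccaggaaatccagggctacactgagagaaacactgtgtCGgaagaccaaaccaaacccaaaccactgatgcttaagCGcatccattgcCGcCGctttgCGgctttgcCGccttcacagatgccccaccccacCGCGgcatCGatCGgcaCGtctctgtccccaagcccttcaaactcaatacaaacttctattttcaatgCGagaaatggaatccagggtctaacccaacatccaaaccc
Zdbf2, chr1:63273019-63273268, plus strand: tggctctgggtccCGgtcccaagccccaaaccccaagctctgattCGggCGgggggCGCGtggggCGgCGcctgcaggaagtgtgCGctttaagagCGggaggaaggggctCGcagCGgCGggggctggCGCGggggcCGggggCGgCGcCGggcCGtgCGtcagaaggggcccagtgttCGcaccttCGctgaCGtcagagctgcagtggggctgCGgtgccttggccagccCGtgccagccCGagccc
Rian, chr12:109603695-109603944, plus strand: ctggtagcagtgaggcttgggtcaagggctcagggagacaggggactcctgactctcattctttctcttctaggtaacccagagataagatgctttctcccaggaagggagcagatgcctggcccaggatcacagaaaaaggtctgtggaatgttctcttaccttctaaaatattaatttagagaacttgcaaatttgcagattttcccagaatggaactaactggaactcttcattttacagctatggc

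The windows differ widely in CpG content. Phlda2 holds 21 CpG, Peg3 8, the first and second Zdbf2 starts 13 and 26, and Rian 0. Over the 35 members, taking the start with most CpG, the median was 12 CpG per window against 6 over all 27025 genes of the table, a description of the windows only. The Peg3 window overlaps that of Usp29, the neighbour transcribed the opposite way, by 163 bases. TGCCGC, the 6 bases that Zfp57 binds when the CpG in them is methylated, was searched on both strands. It lay in 5 of the 35 members' windows (14.3%) and in 9.15% of windows over all genes, with 1 window a gene, the start with most CpG. The 5 were those of Meg3, Mest, Nap1l5, Plagl1 and Zim1. The second Zdbf2 window, counted here, holds 0 matches, and the first, which was not counted, holds 3.

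The first comparison set both iPSC lines against both day 6 cultures and asks how imprinted genes differ between the pluripotent state and an early stage of reprogramming. The maternally expressed growth restrainer Phlda2 rose, and the growth factor Igf2, the signalling adaptor Grb10 and the neuronal gene Nnat fell. Of the 31 members measured, 1 was called higher and 3 lower (12.9%), by a limma adjusted p under 0.05 and at least 2-fold, where over all 12735 measured genes 23.4% were called (14.3% higher and 9.12% lower). By adjusted p alone, 3 members were higher and 7 lower (32.3%), against 46.8% of all measured genes (29.0% higher and 17.8% lower), and 21 did not pass. Both iPSC arrays lay beyond both day 6 arrays for 10 members upward and 12 downward (71.0%), where all measured genes gave 79.5% (46.8% upward and 32.7% downward). The median difference over the 38 genes read, those below the floor among them, was -0.13, against -0.06 over all 22180 genes. By allele, 2 of 14 measured maternal genes were higher and 4 lower by adjusted p alone, and 1 of 17 measured paternal genes was higher and 3 lower.

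The arrays within each pair are not replicates of 1 condition, so the spread in the test also holds whatever differed within each pair, and the labels do not tell whether the cultures were independent; the p-values measure only the spread between these arrays. In bulk cultures, fewer cells of a type and less RNA per cell cannot be told apart. Of 12 pluripotency markers, 11 were higher in the lines and 1 lower. Of 12 fibroblast markers, 8 were lower and 4 higher, so the fall of their summed level given above was not shared by all. Thy1 and Prrx1 were called lower and Pdgfra higher, while Col1a1 and Col3a1 differed by 0.07 each. The part of both marker sets in the differences of imprinted genes was not tested.

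**Figure D2:**
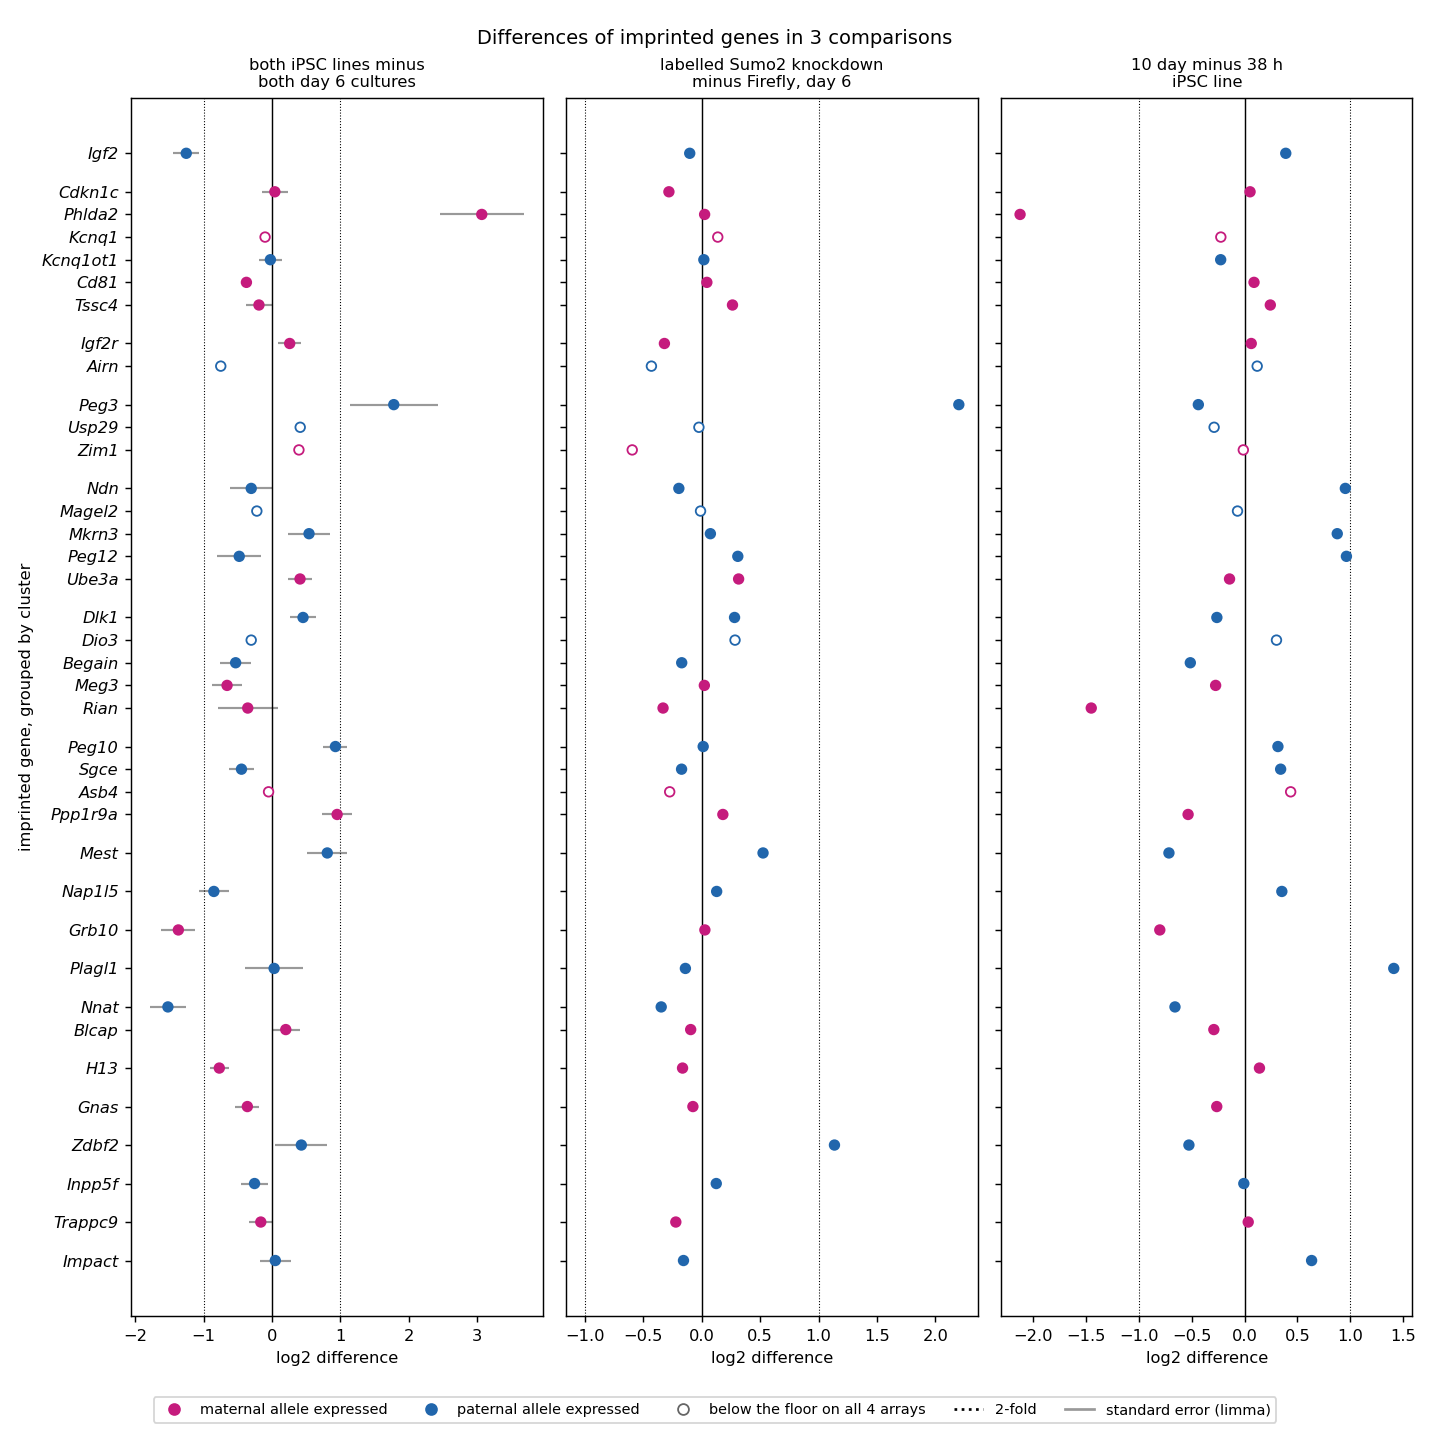
Log2 differences of the 38 genes in 3 comparisons, coloured by the allele known to be expressed; bars in the left panel are limma standard errors, dotted lines mark 2-fold, and open circles are genes below the floor on all 4 arrays. Phlda2 at 3.07 stands highest on the left, Peg3 at 2.20 in the middle, and Plagl1 at 1.41 and Phlda2 at -2.12 bound the right panel.

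On chromosome 7, Igf2 encodes the fetal growth factor insulin-like growth factor 2, expressed from the paternal allele. Its log2 level was 9.80 in the Firefly culture, 9.70 in the culture labelled Sumo2 knockdown, 8.30 in the 38 h line and 8.69 in the 10 day line. Both iPSC lines were below both cultures, and the cultures were close to each other. Igf2 fell by 1.25 on the log2 scale (SE 0.19, 2.39-fold, limma adjusted p = 0.0033), and this call held with each array left out. H19, the maternally expressed non-coding RNA that shares its control region, has no probe set of its own. A probe set shared by H19 and Mir675, the miRNA within it, read 11.53, 11.48, 10.13 and 11.35 in the same order of arrays. The 38 h line alone was low there, 1.21 log2 units under the 10 day line.

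In the neighbouring Kcnq1 cluster, Phlda2 encodes a pleckstrin-homology protein that limits placental growth. It read 5.64 and 5.66 in the day 6 cultures, both below the floor, 9.78 in the 38 h line and 7.66 in the 10 day line. The iPSC levels did not overlap the cultures and were far apart from each other. Phlda2 rose by 3.07 (SE 0.62, limma adjusted p = 0.0087), at least 4.19-fold when counted from the floor. The call was lost without the Firefly array (limma adjusted p = 0.0726) or without the array labelled Sumo2 (limma adjusted p = 0.058).

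The other members of the cluster were not called. Cdkn1c, the cyclin-dependent kinase inhibitor p57, read 6.97, 6.69, 6.85 and 6.90, close to the floor on every array. Kcnq1ot1, the paternal non-coding RNA that silences this cluster, read 7.58, 7.60, 7.68 and 7.45, with the cultures between the lines. Cd81, a membrane tetraspanin, read 12.83, 12.87, 12.43 and 12.52 and fell by 0.37 (SE 0.07, limma adjusted p = 0.0067), which is less than 2-fold and did not pass without the intensity trend (limma adjusted p = 0.0874). Tssc4, a splicing factor, read 8.27, 8.54, 8.09 and 8.34, with the 10 day line between the cultures. Kcnq1, the potassium channel gene, stayed below the floor.

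Grb10, on chromosome 11, encodes an adaptor that dampens insulin and growth factor receptors and is maternally expressed in most tissues. It read 11.64 and 11.67 in the day 6 cultures, 10.69 in the 38 h line and 9.89 in the 10 day line. The cultures were nearly equal and both lines were lower, the 10 day line most. Grb10 fell by 1.37 (SE 0.25, 2.59-fold, limma adjusted p = 0.0064). The call was lost without the Firefly array (limma adjusted p = 0.0553), and without the 10 day array the difference was -0.97.

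Nnat, a paternally expressed gene on chromosome 2 that encodes the small membrane protein neuronatin, read 9.65, 9.30, 8.28 and 7.62. The Firefly culture was highest and the 10 day line lowest, with no overlap between the lines and the cultures. Nnat fell by 1.52 (SE 0.26, 2.87-fold, limma adjusted p = 0.0049). Without the Firefly array the limma adjusted p was 0.0509. A dimmer probe set annotated to Nnat read 6.73, 6.45, 6.80 and 5.93, and with the median of both the difference was -0.88. Of the 20 probe sets nearest to the dimmer one in identifier order, 18 are of genes on the minus strand, while Nnat is on the plus strand, so it is unsure that it reads Nnat. Blcap, the gene that holds Nnat within its intron, read 6.59, 6.50, 6.89 and 6.60, around the floor.

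The remaining genes that passed the adjusted p alone came from several clusters. Peg10, a gene derived from a retrotransposon and needed for the placenta, read 8.92, 8.93, 9.70 and 10.01 and rose by 0.93 (SE 0.18, limma adjusted p = 0.0071). Its neighbour Ppp1r9a, which encodes the actin-binding protein neurabin, read 7.07, 7.25, 8.38 and 7.85 and rose by 0.95 (SE 0.22, limma adjusted p = 0.0148). It no longer passed without the Firefly array (limma adjusted p = 0.104) or without the array labelled Sumo2 (limma adjusted p = 0.0572). Sgce, the paternally expressed sarcoglycan gene that is transcribed away from Peg10, read 8.79, 8.62, 8.09 and 8.43 and did not pass (limma adjusted p = 0.0941), though it did with cyclic loess scaling (limma adjusted p = 0.0394). Within this cluster on chromosome 6, both genes that rose are of opposite parental origin, and Asb4 was below the floor.

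H13, a signal peptide peptidase gene on chromosome 2, read 11.10, 10.94, 10.18 and 10.32 and fell by 0.77 (limma adjusted p = 0.0057). With the median over its bright probe set and a second one below the floor, the limma adjusted p was 0.0813. Of the 20 nearest to the second in identifier order, 19 are on the strand opposite to H13. Nap1l5, a retrogene of the nucleosome assembly family, read 6.95, 7.08, 5.99 and 6.34. It fell by 0.85 (limma adjusted p = 0.0198), but both lines were below the floor, and counted from it the fold was 1.28. Without the Firefly, Sumo2 or 38 h array its limma adjusted p was 0.0836, 0.092 or 0.0531. Mest, a paternally expressed hydrolase-family gene, read 8.67, 9.20, 10.10 and 9.39, higher in both lines, with a limma adjusted p of 0.0603. Gnas, which encodes the stimulatory G protein alpha subunit and gives transcripts of both parental origins that the probe set may mix, read 7.66, 7.58, 7.39 and 7.13 and did not pass (limma adjusted p = 0.139). Igf2r, on chromosome 17, the receptor that clears Igf2 from the cell surface, read 9.83, 9.51, 9.90 and 9.96 and did not pass either (limma adjusted p = 0.247), while its antisense regulator Airn was below the floor. Trappc9, Tssc4, Inpp5f and Impact had differences between -0.25 and 0.05, none of which passed.

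At day 6, the culture labelled Sumo2 knockdown was set against the Firefly culture to ask what the label's knockdown goes with early in reprogramming. With 1 array per group there is no test, and 2-fold was used as a size rule. Of the 28 members measured, 2 were at least 2-fold higher, Peg3 and Zdbf2, and 0 were 2-fold lower (7.14%), where 1.18% of all 11740 measured genes passed that size (0.945% higher and 0.230% lower). At 1.5-fold the same 2 genes passed and 0 were lower, against 6.90% of all genes (4.09% higher and 2.81% lower). The median difference over the 38 genes was 0.00, as over all genes.

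Peg3, a paternally expressed zinc-finger gene on chromosome 7 with roles in maternal behaviour and growth, read 7.83 in the Firefly culture, 10.03 in the culture labelled Sumo2 knockdown, 10.93 in the 38 h line and 10.50 in the 10 day line. The Firefly culture stood alone at the low end, and the other 3 arrays lay within 1 log2 unit of each other. The difference between the cultures was 2.20, or 4.60-fold. Against both cultures together, the lines were 1.78 higher (SE 0.64) and did not pass (limma adjusted p = 0.0614). Without the array labelled Sumo2 the difference was 2.88 (limma adjusted p = 0.0057). A second probe set, shared by Peg3 and its antisense transcript Peg3os, read 6.75, 7.97, 8.03 and 7.54, again with the Firefly culture lowest. Its identifier lies close to that of the Usp29 probe set, whose 20 nearest are all of genes on the plus strand. Peg3 is on the minus strand, so it is unsure that this shared probe set reads Peg3. Both other members of the cluster, Usp29 and Zim1, were below the floor on all arrays, so Peg3 is the only listed gene of its cluster with a measured level.

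Zdbf2, a paternally expressed gene on chromosome 1 known for an imprint that is set by a transcript of the early embryo, read 7.89, 9.02, 9.15 and 8.62. The Firefly culture was again the lowest, and the culture labelled Sumo2 knockdown lay between both iPSC lines. The difference between the cultures was 1.14, or 2.20-fold. Between iPSC and day 6 the difference was 0.43 (SE 0.38, limma adjusted p = 0.382). Of the next largest members, Mest had a difference of 0.52 and Nnat of -0.35, both under 1.5-fold. Pluripotency markers moved the same way between the cultures, with a summed linear level of 2303 against 5012, and the fibroblast sum was 13230 against 10076. Their part in the Peg3 and Zdbf2 differences was not tested.

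The comparison of both iPSC lines asks how far clones of the pluripotent state differ from each other, which is also a single array on each side. Of 28 members measured, Plagl1 was at least 2-fold higher in the 10 day line, and Phlda2 and Rian were at least 2-fold lower (10.7%), where 3.22% of 11754 measured genes passed (2.19% higher and 1.03% lower). At 1.5-fold, 5 members were higher (Impact, Mkrn3, Ndn, Peg12 and Plagl1) and 5 lower (Grb10, Mest, Nnat, Phlda2 and Rian), together 35.7%, against 10.5% of all measured genes (6.44% higher and 4.11% lower). All 5 on the higher side are paternally expressed, but Mkrn3, Ndn and Peg12 lie in 1 cluster and are not independent loci. The lower side holds 3 maternally and 2 paternally expressed genes. Of the measured genes, 6 maternal ones were higher and 7 lower in the 10 day line by any size, and 8 paternal ones were higher and 7 lower.

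Plagl1, a zinc-finger gene on chromosome 10 described as a regulator of other imprinted genes, read 7.96, 7.82, 7.22 and 8.63. The 38 h line was the lowest and the 10 day line the highest, with the day 6 cultures between them, and the lines differed by 1.41, or 2.66-fold. A second probe set annotated to Plagl1 was below the floor on all arrays, at 3.47 to 3.72, and all 20 of its nearest in identifier order are on the strand opposite to Plagl1, so it may not read this gene. For Phlda2, with its 4 values given above, the difference between the lines was -2.12, or 4.35-fold.

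In the cluster on chromosome 7 that runs from Mkrn3 to Ube3a and is linked to Prader-Willi and Angelman syndromes in people, 3 paternally expressed genes were higher in the 10 day line by similar steps. Ndn, which encodes the growth suppressor necdin, read 8.13, 7.93, 7.25 and 8.20, so the 38 h line was low and the 10 day line level with the cultures. Peg12, a paternally expressed neighbour, read 7.62, 7.93, 6.81 and 7.77, with the same arrangement. Mkrn3, a ubiquitin ligase gene, read 6.30, 6.38, 6.44 and 7.32, where only the 10 day line was above the floor. The differences between the lines were 0.95 for Ndn, 0.96 for Peg12 and 0.88 for Mkrn3 (0.66 counted from the floor). None of the 3 passed between iPSC and day 6, with limma adjusted p of 0.448, 0.259 and 0.19.

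Ube3a, the ubiquitin ligase expressed from the maternal allele in neurons, read 8.68, 8.99, 9.32 and 9.17, a difference of -0.14 between the lines. Magel2 was below the floor. Snrpn, a splicing protein gene at the control region, was read only with Snurf, which shares its transcript: 1 probe set read 9.61, 9.76, 10.75 and 11.08, and a dimmer 1 read 7.06, 6.96, 7.15 and 6.45. The brighter was higher in both lines and the dimmer was not, so the shared readings did not move together. Snhg14, the long host transcript of the small nucleolar RNAs (snoRNAs) downstream, read 5.87, 5.96, 8.77 and 9.04, below the floor at day 6 and well above it in both lines. Gm26504, which RefSeq also lists as Snord116, a repeated snoRNA of that host, read 9.41, 9.33, 8.99 and 11.23. Its 15 probe sets held identical values and count as 1 reading, 2.24 higher in the 10 day line, while its host differed by 0.28.

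The Dlk1 to Dio3 cluster on chromosome 12 is the imprinted locus best known from work on mouse iPSC, where silencing of its maternally expressed RNAs marks clones of reduced developmental potential. Its maternal RNAs (Meg3, Rian and Mirg) are non-coding and host many miRNAs and snoRNAs, and its paternal genes (Dlk1, Rtl1 and Dio3) code for proteins. Rian read 10.15, 9.81, 10.35 and 8.90. The 10 day line was the lowest and the other 3 arrays lay close together, and the lines differed by -1.45, or 2.73-fold. The level in the 10 day line was well above the floor.

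Meg3's own probe set read 6.66, 6.68, 6.15 and 5.87, at the floor in the cultures and below it in the lines. It fell by 0.66 (limma adjusted p = 0.0464), yet counted from the floor the difference was -0.0039, and without the Firefly, Sumo2 or 10 day array the limma adjusted p was 0.149, 0.13 or 0.124. Its identifier lies among those of genes on the opposite strand (17 of its 20 nearest in identifier order are on the minus strand and 3 on the plus strand, where RefSeq places Meg3). For Rian all 20 nearest are on the plus strand, so it is unsure that the first probe set reads Meg3 RNA. A probe set shared by Meg3 and Mir770 read 8.37, 7.96, 8.36 and 7.79, and 1 shared by Meg3 and copies of Mir1906 read 8.92, 8.06, 9.41 and 8.74. Both were lower in the 10 day than in the 38 h line, with differences of -0.57 and -0.66. Of the 18 probe sets that list members together with other genes, 12 name Meg3, Rtl1, Rian or Mirg. Those naming Rtl1 name miRNAs as well, so a level of the paternal gene Rtl1 cannot be read from them. The brightest of these, shared by Rtl1 and Mir432, read 8.14, 7.87, 7.95 and 7.33. Of the 12, 8 reached the floor in either line. All 8 were lower in the 10 day line, with a median of -0.64. Of the 947 measured probe sets with several genes, 42.7% were lower. Among the 8, those of Mir134 with Mirg, Mir369 with Mirg, Mir433 with Rtl1 and Mir431 with Rtl1 reached the floor in the 38 h line alone. For these the filter itself favours a lower value in the 10 day line. Between the cultures 9 of the 12 reached the floor. All 9 were lower in the culture labelled Sumo2 knockdown, with a median of -0.27. Of 892 probe sets with several genes measured there, 46.9% were lower. Those of Mir485 with Mirg, Mir369 with Mirg and Mir433 with Rtl1 reached the floor in the Firefly culture alone, so the filter favours their direction too. With the dim ones included, all 12 were lower in both comparisons.

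On the paternal side, Dlk1, a ligand-like regulator of the Notch family, read 7.45, 7.73, 8.18 and 7.92. The difference between the lines was -0.26, and it did not pass between iPSC and day 6 (limma adjusted p = 0.09). Begain, a synaptic scaffold gene at the edge of the cluster, read 7.44, 7.27, 7.08 and 6.57, lowest in the 10 day line. Dio3, the enzyme that inactivates thyroid hormone, was below the floor. Among the members with a probe set of their own in this cluster, Rian alone differed 2-fold between the lines.

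The small RNAs of the cluster gave further readings that the list of members did not use. The probe sets read the hairpin region, so both arms of a miRNA share a value. Of the miRNA genes at or above the floor in both lines, 10 have mature sequences in the RefSeq table, and the 3 of these with the largest differences between the lines are shown 5′ to 3′, with the seed (bases 2 to 8) that pairs with targets in capitals.
miR-453, chr12:109735669-109735692, plus strand: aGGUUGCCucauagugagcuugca
miR-329-3p, chr12:109713541-109713562, plus strand: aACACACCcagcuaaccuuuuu
miR-329-5p, chr12:109713503-109713524, plus strand: aGAGGUUUucugggucucuguu
miR-382-3p, chr12:109733819-109733840, plus strand: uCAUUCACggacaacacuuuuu
miR-382-5p, chr12:109733781-109733802, plus strand: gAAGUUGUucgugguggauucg

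The 5 seeds are all different, so no pair of these arms shares a seed. Mir453 read 8.63, 7.88, 9.59 and 7.85. Mir329 read 8.84, 9.07, 9.28 and 7.94. Mir382 read 7.77, 7.18, 7.99 and 6.82. Each was highest in the 38 h line and lowest in the 10 day line, with differences of -1.74, -1.34 and -1.17.

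Over the 47 miRNA readings between Dlk1 and Dio3, 43 were lower and 4 higher in the 10 day line, with a median of -0.56, and 12 were at least 2-fold lower and 0 higher. Of the 18 at or above the floor in either line, 18 were lower, with a median of -1.02. Mir1188, Mir1193, Mir377, Mir487b, Mir493, Mir540, Mir679 and Mir758 among them reached the floor in the 38 h line alone. For these the filter itself favours a lower value in the 10 day line. Those that reached it in both lines were all lower, from -1.74 for Mir453 to -0.10 for Mir666. Over 418 miRNA readings elsewhere in the genome, 221 were lower, the median was -0.01, and 0 were 2-fold lower while 3 were 2-fold higher. Of the 84 of these at or above the floor in either line, 41 were lower, with a median of 0.01. The 6 snoRNA readings of the cluster, all within Rian, were lower in the 10 day line, 5 of them at least 2-fold, with a median of -1.62. Over 75 snoRNA readings elsewhere, the median was 0.01 and 0 were 2-fold lower. These RNAs are neighbours in long shared transcripts and are not independent readings.

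The snoRNA AF357425 read 10.42, 9.80, 11.22 and 9.58, AF357355 read 7.64, 7.15, 9.13 and 7.09, and DQ267102 read 10.14, 9.64, 9.85 and 8.10. For all 3 the 10 day line was the lowest array. The 38 h line was the highest for the first 2 and lay between the cultures for DQ267102. By host, 6 of 7 miRNA readings within Mirg were lower in the 10 day line, 2 of 3 within Rian, and 35 of 37 outside both. Most single-gene miRNA and snoRNA readings of the cluster were also lower in the culture labelled Sumo2 knockdown than in the Firefly culture. These differences were smaller, with 0 at least 2-fold lower, while the probe set shared by Mir485 and Mirg differed by -1.09. For miRNAs, 34 of 47 were lower (72.3%, median -0.27), against 257 of 418 elsewhere (61.5%, median -0.07). Most of these readings were dim, with 19 of the 47 and 96 of the 418 at or above the floor on any array. Among those at or above the floor in either iPSC line, 14 of 18 were lower (77.8%, median -0.38). Elsewhere, 46 of 84 such readings were lower (54.8%, median -0.07). For snoRNAs, 6 of 6 were lower (median -0.49), against 51 of 75 elsewhere (68.0%, median -0.10).

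**Figure D3:**
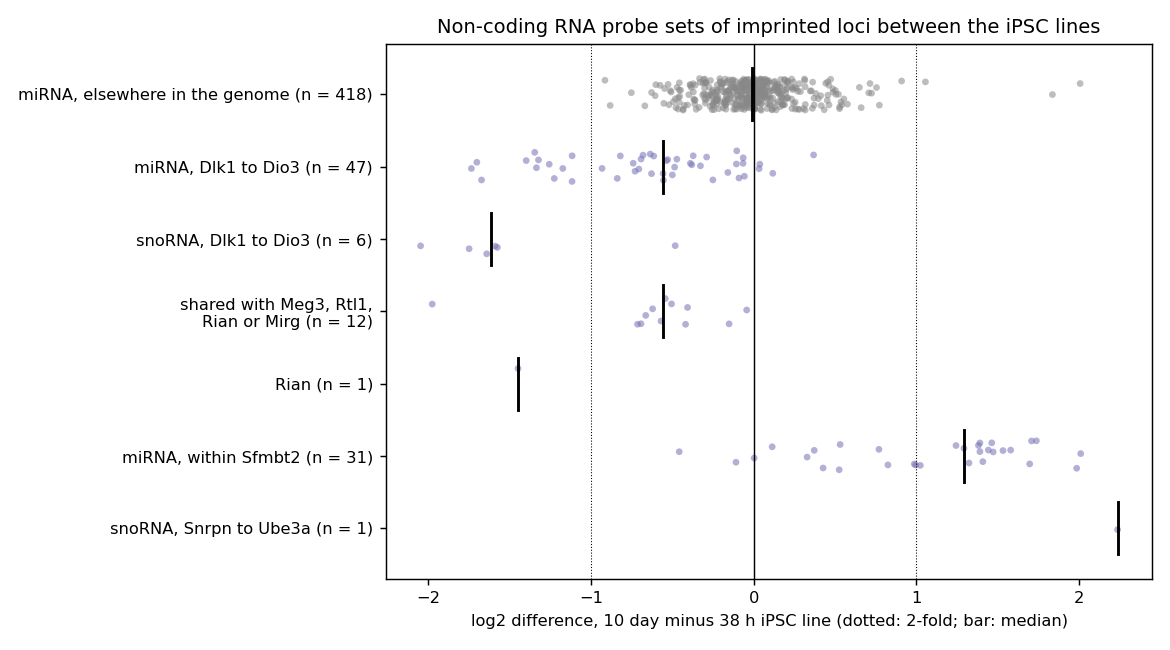
Log2 difference between the iPSC lines (10 day minus 38 h, horizontal axis) for non-coding RNA probe sets, 1 point per reading (those below the floor included), with the median of each group as a bar and 2-fold as dotted lines. Readings between Dlk1 and Dio3 lie mostly left of 0 with a median of -0.56 for miRNAs and -1.62 for snoRNAs, and miRNAs elsewhere centre on -0.01.

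Markers of primitive endoderm, a cell type that arises beside pluripotent cells, also differed between the lines. Their summed linear level was 3452 in the 38 h line and 1925 in the 10 day line (4632 and 3893 in the cultures), and 9 and 8 of 11 were at or above the floor. Afp and Sox17 were below the floor on all 4 arrays. Over the 11 markers, 9 were lower and 2 higher in the 10 day line, with a median of -0.80. The differences ran from -1.64 for Dab2, with Gata6 at -1.30 and Lama1 at -1.11, through -0.05 for Foxa2 to 0.26 for Hnf4a and 0.38 for Col4a1. The summed level of 12 fibroblast markers was 7011 and 5895. For 7 trophoblast markers it was 1376 and 1881, with Cdx2 and Elf5 below the floor everywhere. The part of such cells in the Phlda2, Plagl1 and Rian differences was not tested.

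A list of 27 genes that write, read, erase or protect DNA methylation at imprints was read beside the members. It was chosen with earlier results of these data known, so its shares are a description only. Of 24 measured between iPSC and day 6, 9 were called higher and 1 lower (41.7%), against 23.4% of all measured genes. By adjusted p alone 16 were higher and 1 lower (70.8%), against 46.8%. Counted from the floor, the zinc-finger gene Zfp42 of the pluripotency network gained at least 12.4-fold (limma adjusted p = 0.0001). Dnmt3l, the cofactor of de novo methylation, gained at least 10.8-fold on the same basis (limma adjusted p = 0.0003). Tet1, a methylcytosine oxidase, rose by 3.70 on the log2 scale (7.09, 8.78, 11.75 and 11.51, limma adjusted p = 0.0022).

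Also in that list, the helicase gene Hells rose 5.07-fold, the methyltransferase gene Dnmt3b 4.50-fold and Tet2 3.64-fold. Tet3 fell 2.84-fold (log2 9.64, 9.63, 7.85 and 8.40, limma adjusted p = 0.0028). Zfp57, named after its values were seen because it protects imprints, read 9.64, 9.97, 11.24 and 11.12 and was called higher. At day 6, Tet1 and Hells were at least 2-fold higher in the culture labelled Sumo2 knockdown, by 1.69 and 1.02. Zfp42 and Dppa3 of this list are pluripotency markers as well.

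A second list held 40 further genes reported as imprinted, 34 of them with a probe set and 26 measured. It too was chosen with earlier results of these data known, and its shares are a description only. Dcn and Ascl2 of this list are fibroblast and trophoblast markers as well. Of these, 8 were called higher in iPSC and 6 lower (53.8%), against 23.4% of all measured genes, and 11 and 9 passed the adjusted p alone (76.9%), against 46.8%. Sfmbt2, a Polycomb-related gene of extra-embryonic tissue, gained at least 3.85-fold from the floor and read 5.65, 5.32, 8.01 and 9.20. Jade1, which encodes a histone acetylation cofactor, rose 5.60-fold. Ascl2, a trophoblast transcription factor, was at least 3.64-fold higher, and the decoy receptor gene Tnfrsf23 3.63-fold. Copg2, a coatomer gene next to Mest, rose 2.11-fold, and Qpct, an enzyme gene, gained at least 1.27-fold from the floor.

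On the lower side, Ano1, a calcium-activated chloride channel gene, fell from 11.58 and 11.70 in the cultures to 6.79 and 6.45 in the lines, at least 30.1-fold (limma adjusted p = 0.0001). Osbpl5 fell 2.69-fold, Atp10a 2.22-fold and Cobl 2.14-fold. Phactr2 was at least 2.26-fold lower and Peg13, a non-coding RNA within Trappc9, at least 1.61-fold lower counted from the floor. Its host Trappc9, a member of the first list, differed by only -0.16. The plot of both lists sets these genes beside those that were not called.

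**Figure D4:**
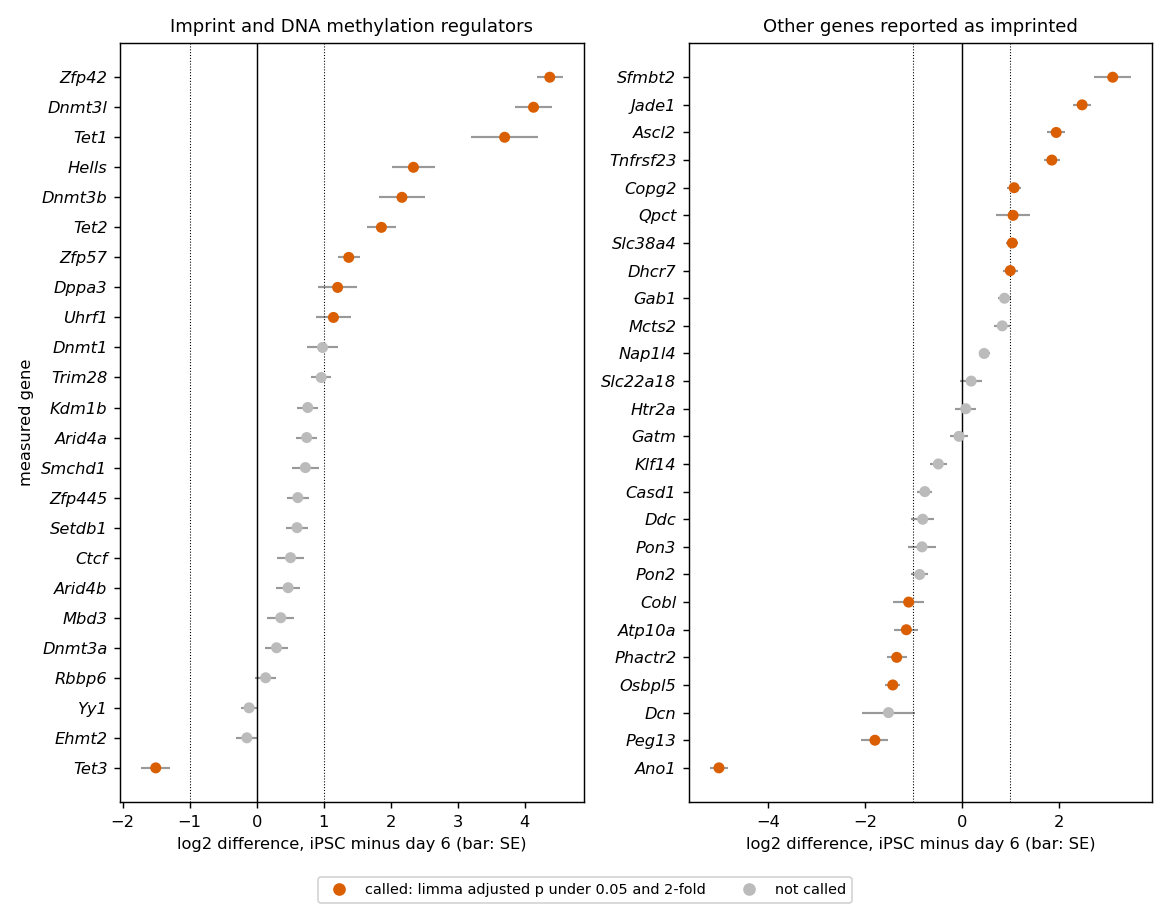
Log2 difference between iPSC and day 6 (horizontal axis, bars are limma standard errors) for the 24 measured regulators and 26 measured further imprinted genes, orange where called. Most regulators lie above 0, with Tet3 at -1.51 the lowest, and the further imprinted genes run from Sfmbt2 at 3.12 to Ano1 at -5.02.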

How the data were processed

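Total RNA of 4 mouse cultures was read on 1 array each. The deposited values are log2 expression per probe set, made by the authors in Affymetrix Expression Console with RMA, per the notes the submitters gave on processing; their versions are not given in the sources used here. No log base is stated, and base 2 was taken from RMA and the range of values (2.98 to 13.7). Quantile normalization within RMA evens out the arrays, so a change in total RNA per cell cannot be seen.

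Of 41345 probe sets, 23521 had 1 gene symbol, 1814 several and 16010 none listed. The single-gene probe set with the highest mean was taken for each of 22180 genes. Chromosomes, promoters and miRNA sequences come from RefSeq tables (GRCm38.p6), which held all 43 members' chromosomes. Both iPSC arrays were tested against both day 6 arrays over all measured genes with R 4.3.3 and its package limma 3.58.1, using lmFit and then eBayes (trend on intensity, 2 residual degrees of freedom), with Benjamini-Hochberg adjustment. A call needed an adjusted p under 0.05 and 2-fold. Pairs of single arrays were compared by size alone, and differences counted from the floor set lower values to it. The script was tested on simulated data. Tables and plots used Python 3.11.15, pandas 2.3.3 and matplotlib 3.10.9. With 1 array per group, the number of arrays limits the precision, and arrays give no counting depth.

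Members called, 2-fold apart in a pair, or in clusters of several measured members are given with 4 values, and others by range. Of the lists of regulators and further imprinted genes, up to 6 called genes on each side are named. The members, lists and tests were chosen with earlier results of these data known. Alternatives covered the filter on dim genes, the choice of probe set, scaling, thresholds, the trend and each array left out. Fibroblast markers were Thy1, Col1a1, Col1a2, Col3a1, Pdgfra, Pdgfrb, Twist2, Prrx1, Fbln2, Lum, Dcn and S100a4. Pluripotency markers were Nanog, Pou5f1, Sox2, Zfp42, Esrrb, Dppa5a, Dppa3, Tdgf1, Utf1, Fgf4, Tfcp2l1 and Lin28a. Those of primitive endoderm were Gata4, Gata6, Sox17, Sox7, Foxa2, Dab2, Pdgfra, Lama1, Col4a1, Hnf4a and Afp. Those of trophoblast were Cdx2, Eomes, Elf5, Tfap2c, Gata3, Hand1 and Ascl2. Markers of germ layer, neural, muscle, macrophage and endothelial cells had summed linear levels of 593 to 1012, 1021 to 1365, 834 to 1207, 645 to 1420 and 1080 to 1694 over the 4 arrays.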

Additional observations from a re-analysis of the deposited data

Results flagged for a closer look

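Probe sets that name a member together with another gene enter no comparison of members, and 4 of the 18 stood at least 2-fold above the Firefly control on some array while at or above the measuring floor there. The probe set of DQ267100 and Rian was 1.91 log2 units above it in the 38 h line, and the 10 day line stood near the control (7.85, 7.62, 9.76 and 7.78 in the Firefly culture, the culture labelled Sumo2 knockdown, the 38 h and the 10 day line). The brighter probe set of Snrpn and Snurf was 1.47 above the control in the 10 day line. The probe set of Peg3 and Peg3os was 1.28 above it in the 38 h line, and the culture labelled Sumo2 knockdown was almost as high. The probe set of Gnasas1, an antisense RNA of the Gnas locus, and Gnas was 1.08 above it in the 38 h line, with 6.07, 6.70, 7.14 and 7.10 on the 4 arrays. None of these readings can be given to 1 of its genes, and with 1 array per group none was tested.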

How the results depend on the processing

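No result changed sign against a call under the alternatives run. Members called higher in iPSC went from 1 to 3 at 1.5-fold and to 3 with the adjusted p alone, and those called lower from 3 to 6 and to 7. With 1 array left out, the lone array of its pair was assumed to vary like the others, and the counts ran from 0 to 4 higher and from 1 to 4 lower. Both lowest counts came without the Firefly array; without the array labelled Sumo2, Peg3 was called in place of Phlda2. Between the lines, 1.5-fold gave 5 higher and 5 lower, and the median over probe sets gave 0 higher, because the dim second Plagl1 probe set pulled that gene below the floor. Without the 38 h array, Rian was called lower in iPSC (-1.08, limma adjusted p = 0.0065). The day 6 counts stayed at 2 and 0 under every alternative run. No paired analysis was possible because the labels carry no replicate numbers and each group is 1 array. Scaling by cyclic loess or array medians, which moved the median of all genes by under 0.1, was added after seeing the data for the Dlk1 to Dio3 small RNAs: 49 of 53 readings were lower in the 10 day line under each scaling, and 40 at day 6 (38 with loess).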

Other observations

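Sfmbt2, on the list of further imprinted genes, carries within an intron a large family of near-identical miRNA copies, and these moved opposite to the Dlk1 to Dio3 miRNAs between the lines. Its 41 miRNA probe sets gave 31 distinct readings, of which 20 were at or above the floor in either line. Of these 20, 19 were higher in the 10 day line, 15 of them at least 2-fold, with a median of 1.39 (over all 31 readings 29, 18 and 1.29). Some of the 20, Mir466n and Mir669e among them, reached the floor in the 10 day line alone, so the filter itself favours a higher value there. Of 84 miRNA readings elsewhere at or above the floor in either line, 43 were higher, 3 of them at least 2-fold, with a median of 0.01. Sfmbt2 itself read 8.01 in the 38 h line and 9.20 in the 10 day line. Such copies share sequence, so their readings cannot be given to single genes and are not independent.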
